A study of Arabidopsis thaliana with 12 samples.

Results

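The CYP78A genes of Arabidopsis thaliana encode cytochrome P450 monooxygenases that promote the growth of leaves, floral organs, fruits and seeds. The members were chosen by locus code, with earlier results of these data known. They were CYP78A5 (AT1G13710, also known as KLUH), CYP78A6 (AT2G46660, also known as EOD3), CYP78A7 (AT5G09970), CYP78A8 (AT1G01190), CYP78A9 (AT3G61880) and CYP78A10 (AT1G74110). All 6 were present among the 36917 genes of the count table. RNA was sequenced from 12 libraries in 4 groups of 3 biological replicates, each a pool of about 20 organs from untreated plants grown at 21 °C in long days of 16 h light and 8 h dark. The Ler ecotype supplied the first tissue, pistils and siliques at floral stages 12 to 16, from wild-type and ful-1 plants. Col-0 supplied the other, inflorescence meristems dissected with their youngest buds (none past stages 3 to 4), from wild-type and ful-7 (SALK_033647, an insertion line) plants. Both mutants are affected in FRUITFULL (FUL), a MADS-domain transcription factor of fruit valves and inflorescence meristems. Tissue and ecotype changed together in this design, as did tissue and mutant allele, and their parts in a difference between pistils and meristems cannot be told apart.

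CYP78A enzymes are thought to act on a lipid-like substrate and to produce a mobile growth signal that keeps neighbouring cells dividing for longer. In Arabidopsis, CYP78A5 is known from the edges of young organs, where loss of the gene gives small organs, and it acts together with CYP78A7 in the pace of leaf initiation and in embryo growth. CYP78A6 and CYP78A9 are known as maternal promoters of seed size that act in the integuments, the outer layers of the ovule, and excess CYP78A9 enlarges the fruit. CYP78A8 and CYP78A10 have been studied less.

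Each member carried a single intron at a similar place in its coding sequence, and CYP78A9 had a further short one in its longest annotated transcript. In the TAIR10.1 annotation, CYP78A5 lies on chromosome 1 at 4702657 to 4704694, CYP78A8 at 82984 to 84946 and CYP78A10 at 27866667 to 27868368 of the same chromosome. CYP78A6 lies on chromosome 2 at 19153328 to 19155579, CYP78A9 on chromosome 3 at 22905867 to 22907958 and CYP78A7 on chromosome 5 at 3111945 to 3114239. CYP78A7 is on the plus strand and the other 5 are on the minus strand. No other annotated gene overlaps any of them, so their counts were not shared with a neighbour on either strand. Coding sequences were 60.3% to 80.5% identical between members. CYP78A6 and CYP78A9 were the closest pair at 80.5%, followed by CYP78A8 with CYP78A9 at 70.7% and CYP78A5 with CYP78A10 at 67.0%. The longest run of identical bases in the aligned coding sequences of any pair was 28 bases, against reads of 150 bases. No member had a stretch of at least 100 bases at 95% identity elsewhere in the genome.

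**Figure D1:**
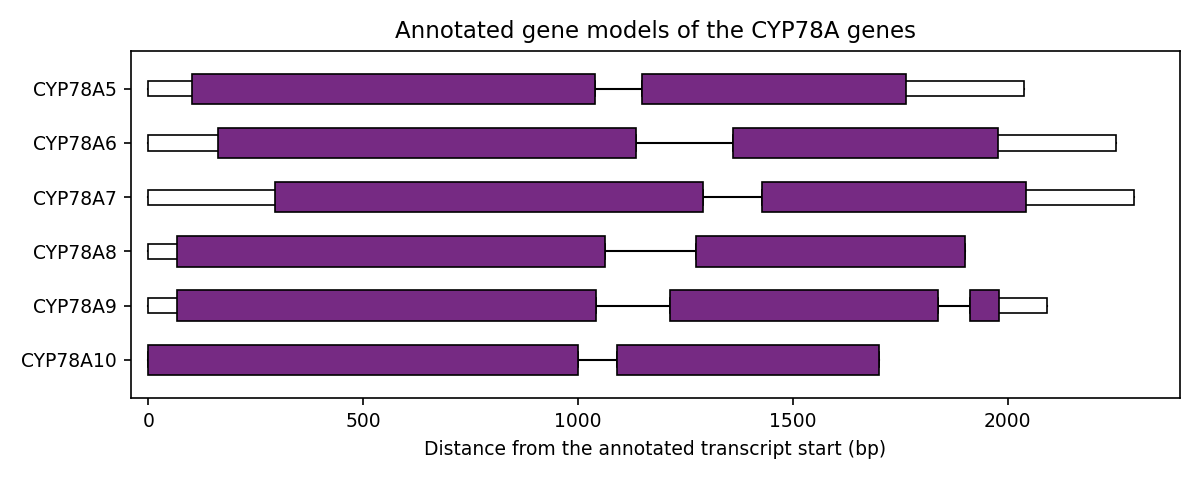
Exon and intron maps of the longest annotated transcript of each CYP78A gene, drawn to scale in bp from the transcript start. Filled boxes are coding sequence, open boxes untranslated exon and lines introns; every gene has an intron at about the same place in the coding sequence, and no untranslated exon is annotated for CYP78A10.

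The heme-binding stretch near the end of the protein is the part of a P450 that holds the iron, and its coding bases are shown because they identify each member as a P450 and show how far the copies have diverged. The capitals mark the codon of the cysteine that binds the heme iron, and each stretch is 30 bases of the TAIR10.1 coding sequence. Of the 30 bases, 15 were identical in all 6 members, and the cysteine was coded by TGT in CYP78A5, CYP78A7 and CYP78A10 and by TGC in CYP78A6, CYP78A8 and CYP78A9, which form the closest group by coding identity.
CYP78A5 (chromosome 1): ttcggatccggtcgtcgggttTGTcccggt
CYP78A6 (chromosome 2): ttcgggtcgggtcgtcggattTGCcccggg
CYP78A7 (chromosome 5): tttggagccggtaggagagtgTGTccgggg
CYP78A8 (chromosome 1): ttcgggtcgggtaagagggttTGCcctgga
CYP78A9 (chromosome 3): ttcgggtccggtcgtcgggttTGCcccggg
CYP78A10 (chromosome 1): ttcggtgctggacgtagggtcTGTcccggc

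The library totals were 38340498 to 83606724 counts in meristems and 13191949 to 38215149 in pistils. Library 3 of the ful-1 pistils had the lowest total and stood apart: its Spearman correlation with the other pistil libraries was 0.905 to 0.911, against 0.977 to 0.987 among the other 5, and its top 50 genes took 26.8% of counts. The tests that use it were run with and without it. FUL itself was checked first, with 102 ± 5.43 CPM (counts scaled to library size, SD, n = 3) in Ler and 7.07 ± 3.92 CPM in ful-1 pistils. Meristems of Col-0 held 118 ± 30.5 CPM and those of ful-7 held 2.48 ± 0.793 CPM. In edgeR's quasi-likelihood test the FUL difference had adjusted p = 0.0633 in pistils, 0.000149 without ful-1 library 3, and 0.000359 in meristems. Meristem markers (8 genes, among them STM and LFY) summed to 381 to 489 CPM in meristems and 46.4 to 56.4 CPM in pistils, whereas ovule and seed coat markers (8 genes, among them INO and STK) summed to 11.4 to 13.8 CPM in meristems, with 0 to 3 of them at 0 counts in a library, and to 321 to 756 CPM in pistils. Of the 7 carpel markers, 4 of 6 tested were called higher in Ler pistils than in Col-0 meristems by edgeR, beside 31.8% of all genes tested. However, CRC, a carpel and nectary factor, ran from 7.88 to 26.1 CPM in those meristems and from 3.10 to 9.86 CPM in those pistils. HEC2 ran from 0.212 to 0.311 CPM in the meristems against 0 to 0.0846 CPM in the pistils. Pollen markers (4 genes) summed to 10.5 to 25.2 CPM in meristems, 337 to 1002 CPM in Ler and 341 to 476 CPM in ful-1 pistils, and the part of pollen RNA in the tissue differences was not tested.

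The pistil and meristem libraries differed in which members of the family were most abundant. Meristem libraries held mainly CYP78A5, with CYP78A7 a distant second, while pistil libraries held mainly CYP78A6, together with CYP78A9 and CYP78A7. To compare genes with each other, levels were divided by exonic length and given as CPM per kb of exon. The 6 members together reached 42.5 ± 3.89 CPM per kb (SD, n = 3) in Col-0 meristems and 44.0 ± 2.20 in ful-7 meristems, against 10.6 ± 1.36 in Ler pistils and 11.7 ± 3.39 in ful-1 pistils (13.4 ± 2.40 without library 3, n = 2). CYP78A5 made up 90.9% ± 1.5 of that sum (mean ± SD, n = 3) in Col-0 and 88.0% ± 2.52 in ful-7 meristems, but 5.98% ± 1.83 in Ler and 5.66% ± 2.98 in ful-1 pistils. CYP78A6 made up 64.1% ± 7.88 in Ler and 60.7% ± 6.45 in ful-1 pistils. CYP78A9 contributed 13.6% ± 1.16 in Ler and 16.5% ± 3.05 in ful-1 pistils. With ful-1 library 3 left out the shares were 7.20% ± 1.88 for CYP78A5, 62.9% ± 7.43 for CYP78A6, 18.2% ± 0.0984 for CYP78A9 and 10.8% ± 4.99 for CYP78A7 (n = 2). CYP78A7 had a share in both tissues, at 15% ± 7.48 and 16.0% ± 9.73 in Ler and ful-1 pistils and 7.15% ± 1.23 and 10.9% ± 2.60 in Col-0 and ful-7 meristems. Its level went the other way, at 1.56 ± 0.780 CPM per kb in Ler pistils and 3.06 ± 0.723 in Col-0 meristems.

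**Figure D2:**
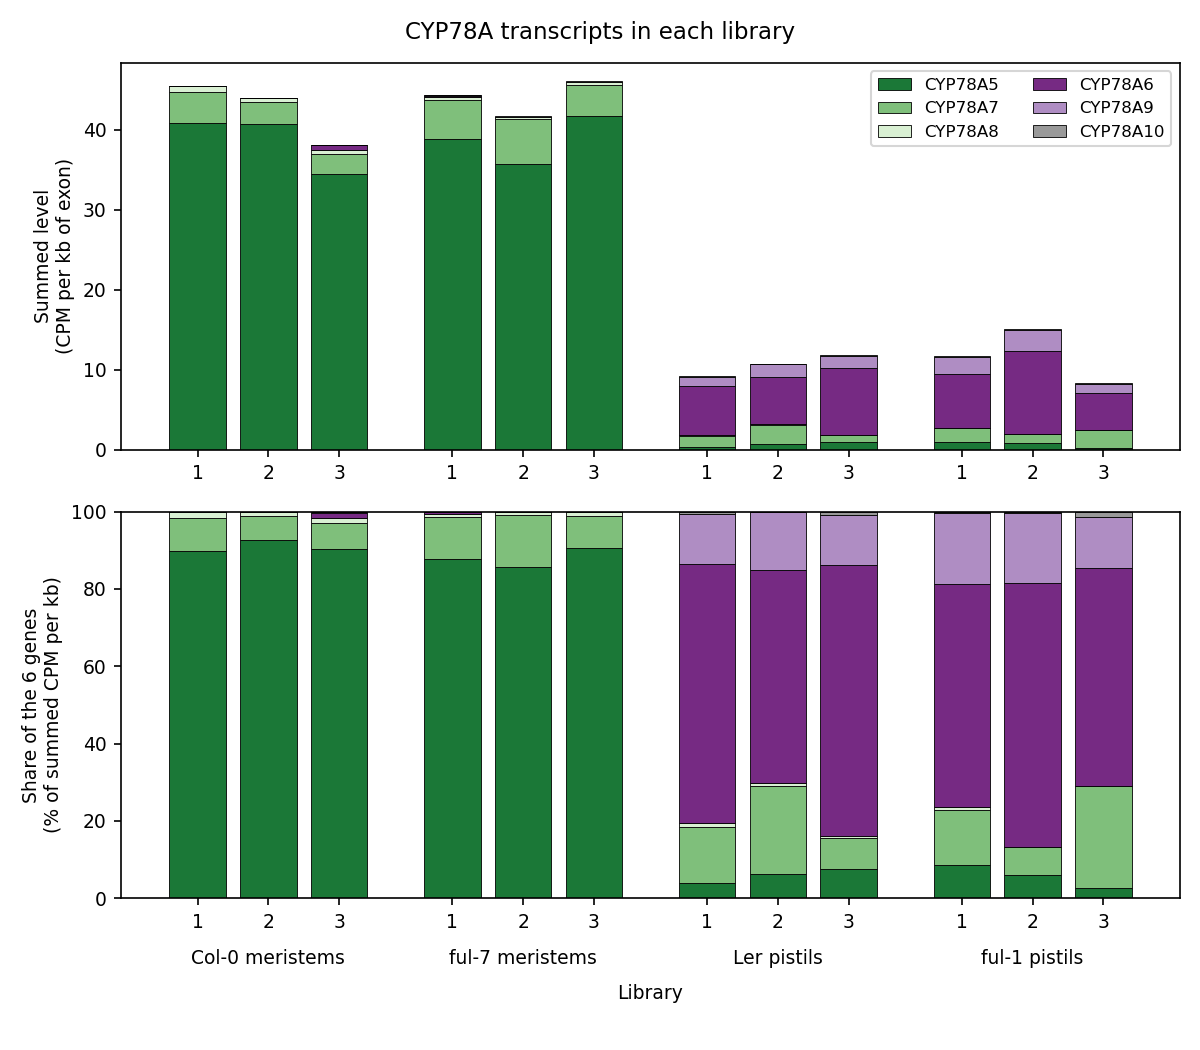
Summed level of the 6 CYP78A genes in each library (upper panel, CPM per kb of exon) and the share of each gene in that sum (lower panel, %). The meristem bars are nearly filled by CYP78A5, at 90.9% on average in Col-0. In the pistil bars CYP78A6 is the largest part, at 64.1% on average in Ler.

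In Ler pistils the order per kb of exon was CYP78A6, CYP78A7, CYP78A9, CYP78A5, CYP78A8 and CYP78A10. The libraries of CYP78A7 and CYP78A9 overlapped, as did those of CYP78A8 and CYP78A10, so these neighbours did not differ beyond their spread. In ful-1 pistils CYP78A9 stood before CYP78A7 and CYP78A10 before CYP78A8, both within overlapping ranges. For the first pair that overlap came from library 3: in the other ful-1 libraries CYP78A9 ran from 2.14 to 2.74 CPM per kb and CYP78A7 from 1.10 to 1.67. In Col-0 meristems the order was CYP78A5, CYP78A7, CYP78A8, CYP78A6, CYP78A10 and CYP78A9, and the last 4 formed a run in which each overlapped the next. The overlap of CYP78A8 with CYP78A6 came from Col-0 library 3, with 0.530 CPM per kb of CYP78A6. In libraries 1 and 2 CYP78A8 had 0.739 and 0.488 CPM per kb, CYP78A10 0.0417 and 0.0321, and CYP78A6 0.0166 and 0.0255. In ful-7 meristems CYP78A10, CYP78A6 and CYP78A9 followed CYP78A8 and overlapped in the same way. The overlap of CYP78A10 with CYP78A6 came from ful-7 library 1, with 0.120 CPM per kb of CYP78A6.

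**Figure D3:**
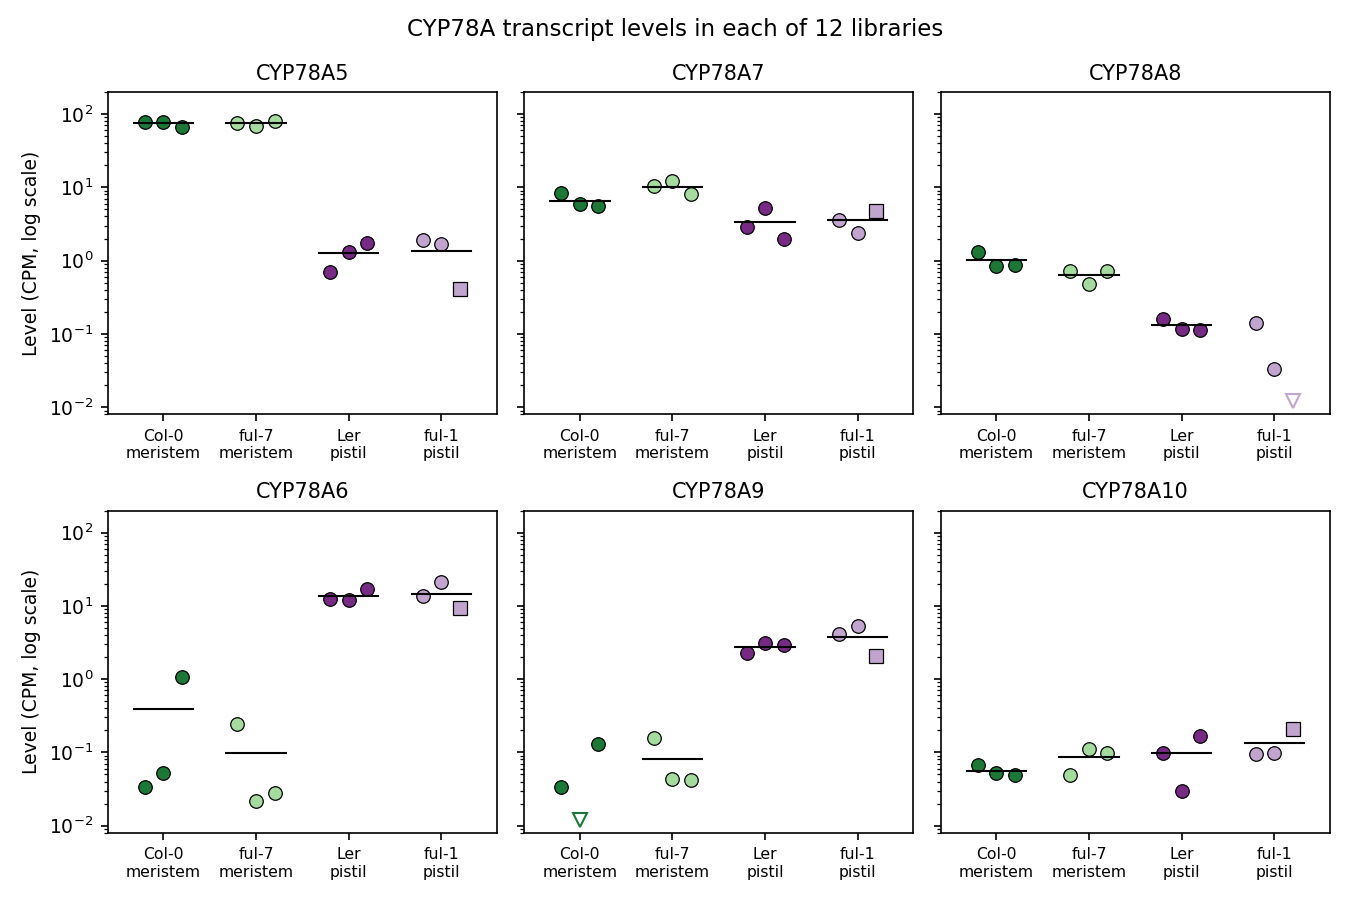
Level of each CYP78A gene (CPM on a log axis) in every library of the 4 groups. Circles are single libraries, the square is ful-1 library 3, open triangles are libraries with 0 counts and are placed at an arbitrary low value, and a line marks the mean where all 3 libraries had counts; the 6 pistil libraries lie far below the 6 meristem libraries for CYP78A5 and above them for CYP78A6 and CYP78A9.

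CYP78A5, the growth promoter of young organ edges, was the meristem member. It had 78.8, 78.6 and 66.5 CPM in the 3 Col-0 meristem libraries and 75.0, 68.9 and 80.6 CPM in those of ful-7. It had 0.709, 1.30 and 1.75 CPM in Ler pistils and 1.92, 1.71 and 0.412 CPM in ful-1 pistils, the last from 4 counts. The lowest meristem library stood far above the highest pistil library. In edgeR's quasi-likelihood test CYP78A5 was 58.2-fold lower in Ler pistils than in Col-0 meristems (log2 fold change -5.86 ± 0.27 SE, adjusted p = 6.94e-06). Over the 13 alternative settings and omitted libraries the log2 fold change ran from -6.27 to -5.60.

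CYP78A6, a maternal promoter of seed size, showed the reverse pattern. Its counts in Ler pistils were 385, 406 and 600, which gave 12.4, 12.0 and 16.9 CPM, and ful-1 pistils had 13.7, 20.8 and 9.48 CPM. In Col-0 meristems the counts were 2, 2 and 66, and in ful-7 meristems 20, 1 and 2. A single library therefore held most of the meristem counts in each genotype. CYP78A6 was 33.2-fold higher in Ler pistils than in Col-0 meristems (edgeR, log2 fold change 5.05 ± 0.90 SE, adjusted p = 0.00222). Without Col-0 library 3 the log2 fold change was 8.31 ± 0.36 (edgeR, adjusted p = 1.91e-05), so the size of the difference was set by that library while its direction was not. The ovule list summed to 11.6 CPM in that library, 9.36 CPM of it from SHP1, and to 13.7 and 13.8 CPM in Col-0 libraries 1 and 2. TT2, a seed coat factor on that list, had 0.424 CPM there, from 26 counts, against 0 to 0.101 CPM in the other 5 meristem libraries. In the same Col-0 library STK (0.0978 CPM) and SHP2 (0.685 CPM) were lower than in any other meristem library. TT16 had 0 counts there, and INO and BAN had 3 counts each. In ful-7 library 1, with 20 CYP78A6 counts, TT2 had 0.0975 CPM. The part of ovule or seed coat RNA in the CYP78A6 counts was not tested.

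CYP78A9, the closest relative of CYP78A6 and a gene known to enlarge fruits, followed the same pattern at a lower level. Ler pistils had 2.29, 3.07 and 2.93 CPM, and ful-1 pistils had 4.11, 5.26 and 2.06 CPM. Col-0 meristems had 2, 0 and 8 counts and ful-7 meristems 13, 2 and 3 counts. The meristem libraries richest in CYP78A9, Col-0 library 3 and ful-7 library 1, were also the richest in CYP78A6. In edgeR's test CYP78A9 was 43.7-fold higher in Ler pistils than in Col-0 meristems (log2 fold change 5.45 ± 0.64 SE, adjusted p = 3e-04), and 6.91 ± 0.56 on the log2 scale without Col-0 library 3.

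CYP78A8 had few reads everywhere and was a meristem member at a low level. Col-0 meristems had 77, 33 and 53 counts, or 1.29, 0.854 and 0.864 CPM, and ful-7 meristems had 60, 22 and 52 counts, or 0.731, 0.482 and 0.723 CPM. Ler pistils had 5, 4 and 4 counts and ful-1 pistils 6, 1 and 0 counts. All 6 pistil libraries lay below all 6 meristem libraries. CYP78A8 was 7.53-fold lower in Ler pistils than in Col-0 meristems (edgeR, log2 fold change -2.91 ± 0.37 SE, adjusted p = 0.000459).

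CYP78A7, the partner of CYP78A5, was found in both tissues. Col-0 meristems had 8.39, 5.90 and 5.51 CPM and ful-7 meristems had 10.4, 12.1 and 8.17 CPM. Ler pistils had 2.87, 5.26 and 2.00 CPM and ful-1 pistils 3.61, 2.37 and 4.74 CPM. The highest Ler library came just below the lowest Col-0 library. The log2 fold change between Ler pistils and Col-0 meristems was -0.95 ± 0.36 SE, and its adjusted p of 0.0513 in edgeR did not pass the threshold of 0.05. DESeq2 gave an adjusted p of 0.0255 and limma-voom with sample quality weights 0.00492, and without Ler library 2 edgeR gave 0.00617 with a log2 fold change of -1.43.

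CYP78A10 was close to the detection limit, with 1 to 7 counts in each of the 12 libraries. Its mean level was 0.0560 ± 0.00987 CPM in Col-0 meristems, 0.0852 ± 0.0322 in ful-7 meristems, 0.0985 ± 0.0698 in Ler pistils and 0.133 ± 0.0635 in ful-1 pistils (SD, n = 3). A floor of 3 counts corresponds to 0.0365 to 0.309 CPM depending on the library, and at this depth no difference for CYP78A10 was detectable. It did not pass the filter on low counts in any comparison.

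Between the wild types, 2 members rose in pistils (CYP78A6 and CYP78A9), 2 fell (CYP78A5 and CYP78A8), CYP78A7 did not pass and CYP78A10 was not tested. Tissue differences were common in this comparison: 31.8% of the 24009 genes tested were higher and 29.1% lower in pistils. A call together with an absolute log2 fold change of at least 2 was met by 20.0% of genes and by CYP78A5, CYP78A6, CYP78A8 and CYP78A9 among the 5 members tested. CYP78A6 and CYP78A9 did not pass the filter on low counts among meristems alone, nor did CYP78A8 among pistils alone. They entered this test through the tissue where they were high, so the members' share cannot be weighed against that of all genes. The median log2 fold change of the 5 was -0.95, against 0.01 over all genes tested.

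The same tissues were compared in the mutants, which share no library with the wild-type comparison. CYP78A6 and CYP78A9 were again higher in pistils, by 7.12 ± 0.92 and 5.50 ± 0.69 SE on the log2 scale (edgeR, adjusted p = 0.00197 and 0.0018). CYP78A5 was lower, with a log2 fold change of -5.67 ± 0.52 SE (edgeR, adjusted p = 0.000633). CYP78A7 and CYP78A8 were lower too, at -1.48 ± 0.34 and -2.99 ± 0.69 SE (edgeR, adjusted p = 0.0183 and 0.0185). All 5 members tested were thus called, beside 18.2% of genes called higher and 11.9% called lower. CYP78A6, CYP78A8 and CYP78A9 again entered the test through the tissue where they were high, so these shares are not a like comparison. Without ful-1 library 3 the 5 members were called in the same directions, beside 36.4% of genes higher and 33.4% lower. The calls of CYP78A7 and CYP78A8 depended on single libraries: CYP78A7 had adjusted p = 0.0708, 0.0659 and 0.059 in edgeR without ful-7 library 1, ful-7 library 2 and ful-1 library 1. CYP78A8 had adjusted p = 0.075, 0.0715 and 0.0768 in edgeR without ful-7 library 1, ful-7 library 3 and ful-1 library 2, and a log2 fold change of -4.57 without ful-1 library 1. Without ful-7 library 1, which held 20 of the 23 CYP78A6 counts of that group, the log2 fold change was 9.03 for CYP78A6 and 6.41 for CYP78A9.

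**Figure D4:**
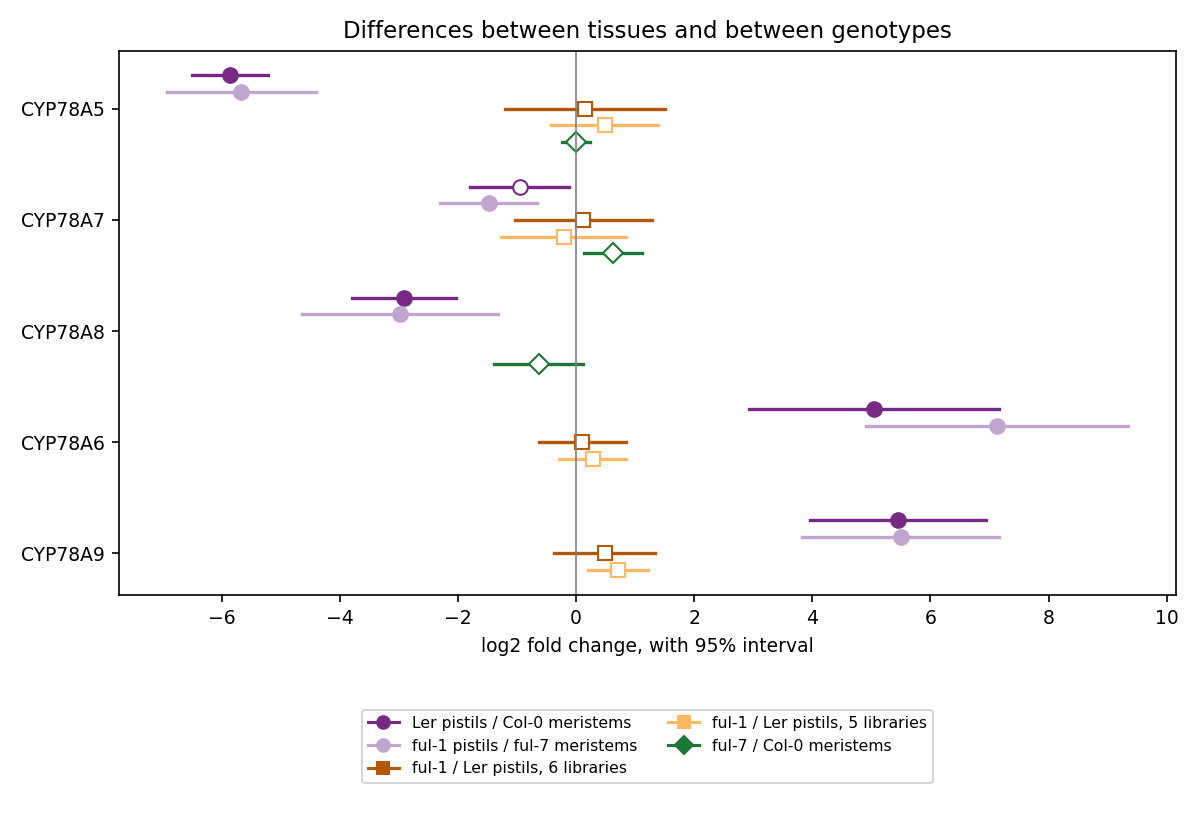
log2 fold change of each tested CYP78A gene with its 95% interval (x axis) in the 2 tissue comparisons and the 3 comparisons of mutant with wild type. Filled symbols passed an adjusted p of 0.05 in edgeR and open symbols did not; the tissue differences reach -5.86 for CYP78A5 and 5.45 for CYP78A9 between the wild types, while no comparison of mutant with wild type passed.

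The comparison of ful-1 with Ler pistils asks whether loss of FUL in the growing fruit changed these growth genes. No member passed among the 4 tested with all 6 libraries, where 0.186% of the 23674 genes were called by edgeR. In edgeR unadjusted p-values were 0.219 or above for all 4, and DESeq2 called none beside 3.92% of all genes. The log2 fold changes were 0.16 ± 0.56 SE for CYP78A5, 0.11 ± 0.31 for CYP78A6, 0.12 ± 0.48 for CYP78A7 and 0.48 ± 0.35 for CYP78A9 (edgeR, adjusted p = 0.905, 0.884, 0.915 and 0.587). None of the 4 had libraries that separated the groups, against 26.4% of all genes tested. The 95% intervals were wide, from -1.20 to 1.51 for CYP78A5 and from -0.64 to 0.85 for CYP78A6. CYP78A8, with 13 counts in Ler and 7 in ful-1 over 3 libraries each, and CYP78A10 were left out by the filter on low counts.

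CYP78A9 had the lowest adjusted p of the 4 members tested in pistils, in edgeR with and without library 3. Its 2 other ful-1 libraries, 4.11 and 5.26 CPM, lay above all 3 Ler libraries, and library 3, at 2.06 CPM, lay below them. Without library 3 the mean was 4.68 ± 0.815 CPM (SD, n = 2) in ful-1 against 2.76 ± 0.418 (n = 3) in Ler. The log2 fold change was then 0.71 ± 0.21 SE with a 95% interval of 0.21 to 1.22, which did not pass after adjustment (edgeR, adjusted p = 0.0756). Limma-voom with sample quality weights, which keeps every library and weights each by its estimated quality, called CYP78A9 higher in ful-1. The log2 fold change was 0.77 ± 0.19 (adjusted p = 0.023), where this tool called 23.1% of all genes tested. The weights given to single libraries were not examined. In the same fit CYP78A5 had a larger log2 fold change of 0.82 ± 0.33 SE, which did not pass (limma-voom, adjusted p = 0.111). The 13 alternatives re-use these libraries and are not independent of each other. Over them the log2 fold change of CYP78A9 was positive in all 13 and ran from 0.21 to 0.77, with adjusted p from 0.023 to 0.897. That of CYP78A5 was positive in 10 of the 13 and ran from -0.17 to 0.82.

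Without ful-1 library 3 none of the 4 members passed, where 13.4% of 24068 genes were called, and CYP78A9 was the 1 of 4 whose libraries did not overlap between genotypes, as was the case for 50.7% of all genes. CYP78A5 then had a log2 fold change of 0.49 ± 0.37 SE, CYP78A6 0.28 ± 0.23 and CYP78A7 -0.21 ± 0.43 (edgeR, adjusted p = 0.417, 0.458 and 0.778). The sum of the ovule and seed coat markers was 321, 368 and 346 CPM in Ler and 743, 756 and 468 CPM in ful-1 libraries 1 to 3. Of that sum SHP1 gave 82.8, 73.8 and 89.5 CPM in Ler and 232, 232 and 108 CPM in ful-1. SHP2 gave 64.7, 76.0 and 60.5 CPM in Ler and 132, 137 and 101 CPM in ful-1. Which part of the SHP1 and SHP2 values came from ovules was not tested. In library 3 that sum was above all 3 Ler libraries through INO, STK, SHP1 and SHP2. TT16, BAN, TT2 and BEL1 were below all 3 Ler libraries there, as was CYP78A9. In edgeR 6 of the 8 ovule and seed coat genes were called higher in ful-1 without library 3, and none of the 8 with it. With library 3, 4 of them had an unadjusted p under 0.05 in edgeR, as had 2429 of the 23674 genes tested. DESeq2 called 3 of the 8 and limma-voom with quality weights 8, beside 3.92% and 23.1% of all genes. Other lists differed without library 3 too: in edgeR 3 of 3 genes of green tissue were lower in ful-1, 1 of 6 carpel genes and 1 of 2 stamen and petal genes were higher, and 0 of 4 pollen genes passed. In whole pistils, a larger share of cells that express a gene and more RNA per cell cannot be told apart, and the part of these other cell types in the CYP78A9 values was not tested.

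In the meristem the study compared ful-7 with Col-0 as the counterpart outside the fruit. None of the 3 members tested passed in edgeR, where 0.292% of the 22605 genes were called, and DESeq2 and limma-voom with quality weights called none, beside 3.59% and 3.75% of all genes. CYP78A5 was estimated closely, with a log2 fold change of 0.00 ± 0.10 SE and a 95% interval of -0.23 to 0.24 (edgeR, adjusted p = 0.999). That interval allows a level in ful-7 between 0.850 and 1.18 times that in Col-0. For CYP78A7 the mean was 6.60 ± 1.56 CPM in Col-0, against 10.2 ± 1.96 CPM in the mutant (SD, n = 3), and the highest Col-0 library, 8.39 CPM, slightly exceeded the lowest ful-7 library, 8.17 CPM. Its log2 fold change of 0.62 ± 0.21 SE had an unadjusted p of 0.0183 and an adjusted p of 0.271 in edgeR. It was the 1 of 3 with an unadjusted p under 0.05, beside 3406 of the 22605 genes tested. The log2 fold change of CYP78A7 was positive in all 13 alternatives, which re-use the same libraries and are not independent tests. CYP78A8 ran from 0.854 to 1.29 CPM in Col-0 and from 0.482 to 0.731 CPM in the mutant. The CYP78A8 libraries did not overlap, as was the case for 22.9% of all genes tested. Its log2 fold change was -0.63 ± 0.32 SE (edgeR, adjusted p = 0.393).

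The effect of the mutation did not differ detectably between the tissues for any of the 5 members tested, where 0.751% of the 25154 genes were called by edgeR. In edgeR 0 of 5 reached an unadjusted p under 0.05, and neither DESeq2 nor limma-voom with quality weights called any, beside 4.91% and 20.1% of all genes. The difference of log2 fold changes, pistil minus meristem, was 0.22 for CYP78A5, 1.98 for CYP78A6, -0.57 for CYP78A7, -0.09 for CYP78A8 and -0.01 for CYP78A9 (edgeR, adjusted p = 0.913, 0.576, 0.684, 1 and 1). The value for CYP78A6 rests on the 70 counts of Col-0 and 23 counts of ful-7 meristems, and its 95% interval ran from -1.04 to 4.998. Without ful-1 library 3, none of the 5 passed beside 10.2% of genes called, and adjusted p in edgeR was 0.324 to 0.963. Alleles and ecotypes differed between the tissues here as well.

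The bases just before each transcript start are shown for CYP78A5 and CYP78A8, which were high in meristems, and for CYP78A6 and CYP78A9, which were high in pistils, since MADS-domain proteins such as FUL bind CArG boxes. Each window holds the 250 bases before the annotated start in TAIR10.1, and capitals mark a CArG box.
CYP78A5, chr1:4704695-4704944, minus strand: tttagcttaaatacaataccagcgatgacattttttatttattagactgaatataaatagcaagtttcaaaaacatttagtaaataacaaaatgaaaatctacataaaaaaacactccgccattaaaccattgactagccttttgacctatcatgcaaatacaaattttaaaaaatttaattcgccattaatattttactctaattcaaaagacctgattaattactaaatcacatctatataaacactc
CYP78A8, chr1:84947-85196, minus strand: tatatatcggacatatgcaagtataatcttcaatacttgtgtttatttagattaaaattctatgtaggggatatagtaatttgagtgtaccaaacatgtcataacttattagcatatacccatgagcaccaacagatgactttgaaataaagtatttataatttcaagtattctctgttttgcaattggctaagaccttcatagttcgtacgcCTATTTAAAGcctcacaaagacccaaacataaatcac
CYP78A6, chr2:19155580-19155829, minus strand: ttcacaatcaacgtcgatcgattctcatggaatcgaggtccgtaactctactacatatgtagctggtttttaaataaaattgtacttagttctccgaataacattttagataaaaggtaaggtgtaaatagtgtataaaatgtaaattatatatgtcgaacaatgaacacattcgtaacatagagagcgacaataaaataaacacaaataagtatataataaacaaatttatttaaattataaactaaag
CYP78A9, chr3:22907959-22908208, minus strand: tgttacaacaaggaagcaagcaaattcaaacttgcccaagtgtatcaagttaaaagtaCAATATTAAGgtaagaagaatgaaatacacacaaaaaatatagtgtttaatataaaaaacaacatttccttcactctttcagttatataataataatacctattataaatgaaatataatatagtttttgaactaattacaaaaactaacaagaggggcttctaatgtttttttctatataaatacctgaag

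Here a CArG box was counted as 10 bases that begin with C and end with G, with the 6 central bases A or T, the second base C, A or T and the ninth G, A or T, on either strand. CYP78A8 held a box from 37 to 28 bases before the start and CYP78A9 a box from 192 to 183 bases before it. CYP78A5, CYP78A6, CYP78A7 and CYP78A10 held none in their windows. Such a box was found in 37.1% of 27443 windows of the same length over the genome. The G-box letters CACGTG were in the CYP78A7 window, 92 to 87 bases before the start, and in 6.5% of all windows. GTAC, the core bound by SPL factors, was once in CYP78A6, CYP78A9 and CYP78A10 and at 2 places in CYP78A8, and in 34.3% of all windows; the copy in CYP78A9 shared 1 base with its CArG box. The members that moved in the same direction thus did not share the same set of these letters. A match is a description of the window and does not show a bound site.

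The pattern over the 12 libraries was compared with that of 25153 other genes by Pearson's r of log2(CPM + 0.5), as a description. Because the 2 tissues separate most expressed genes, high values were common: 1101 genes had r above 0.95 with CYP78A5 and 1250 with CYP78A9. Closest to CYP78A5 were AT1G63630, PAN (PERIANTHIA, a bZIP factor of floral organ number) and AT5G55790, each with r = 0.996. Closest to CYP78A6 were AT2G18600 (0.992), AT3G23450 (0.992) and SUS4, a sucrose synthase (0.991), and CYP78A6 and CYP78A9 had r = 0.981 with each other. Closest to CYP78A9 were GAUT12, an enzyme of xylan synthesis in secondary walls, PEPR1, a peptide receptor, and AT5G46877, each with r = 0.995. CYP78A8 was nearest to AT3G62540 (0.987), AT5G04215 (0.977) and AT4G37230 (0.976). CYP78A7 had only 7 genes above 0.95, led by AT1G48580 (0.962), AT3G44960 (0.956) and AT3G18580 (0.956).

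A list of 30 other genes of organ and seed size was read beside the family. Between the wild types, 8 were higher in pistils, 11 were lower and 10 did not pass among the 29 tested, a share called of 65.5%, close to the sum of the genome-wide shares given above. The lowest p-values belonged to GIF1, a coactivator of growth factors that drives cell proliferation (459 ± 13.6 CPM in Col-0, 60.2 ± 4.19 in Ler, SD, n = 3), and GRF5, a growth factor that works with it (80.1 ± 12.5 and 7.21 ± 1.63 CPM). Their log2 fold changes were -2.92 ± 0.10 and -3.45 ± 0.20 SE (edgeR, adjusted p = 2.16e-06 and 1.56e-05). AT4G32295 followed at -1.83 ± 0.13 (edgeR, adjusted p = 3.07e-05). ARL, a growth promoter of the ARGOS family, was higher in pistils by 4.40 ± 0.35 on the log2 scale (edgeR, adjusted p = 5.72e-05), with 87.2 ± 10.4 CPM in Ler and 4.19 ± 1.87 in Col-0. With the family and the list side by side, CYP78A5 had the lowest log2 fold change, and CYP78A9 at 5.45 and CYP78A6 at 5.05 were at the upper end. Which of those 2 came first turned on Col-0 library 3, without which CYP78A6 stood at 8.31 and CYP78A9 at 6.91.

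**Figure D5:**
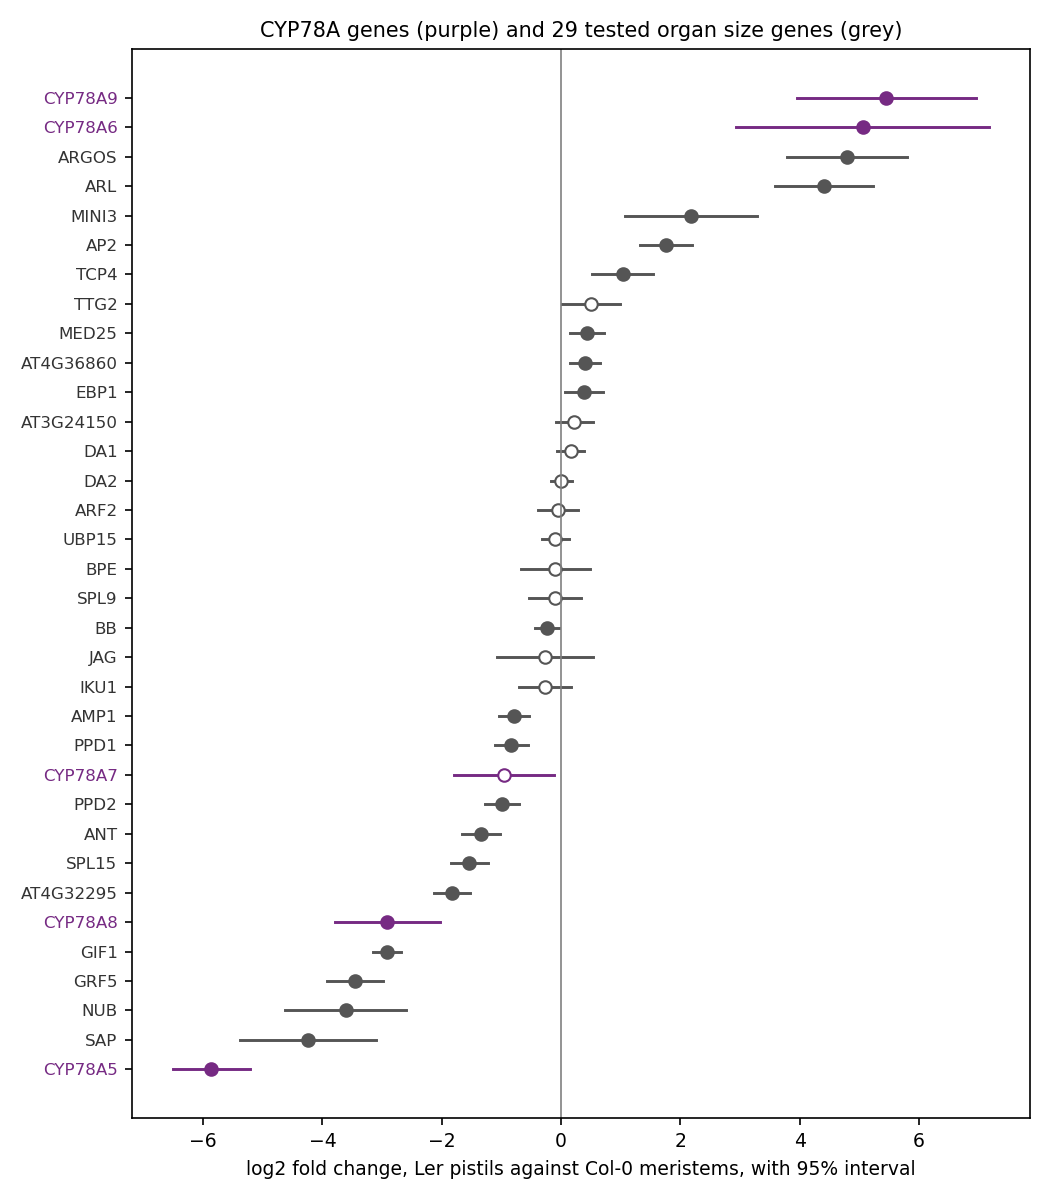
log2 fold change between Ler pistils and Col-0 meristems, with its 95% interval, for the 5 tested CYP78A genes (purple) and 29 tested genes of organ and seed size (grey), in order of size. Filled circles passed an adjusted p of 0.05 in edgeR; CYP78A9 at 5.45 and CYP78A6 at 5.05 lie at the upper end and CYP78A5 at -5.86 at the lower.

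Between ful-1 and Ler pistils none of the 27 list genes tested passed in edgeR, where 0.186% of all genes were called. An unadjusted p under 0.05 was found in edgeR for 3 of the 27 and for 2429 of the 23674 genes tested. DESeq2 called 2 lower and limma-voom with quality weights called 8 higher and 2 lower, where these tools called 3.92% and 23.1% of all genes. Without ful-1 library 3, 6 were higher and 2 lower of 28 in edgeR, where 13.4% of all genes were called. BB, a ubiquitin ligase that limits organ size, was higher by 0.73 ± 0.08 and AP2, a floral factor that limits seed size, by 1.15 ± 0.15 on the log2 scale (edgeR, adjusted p = 0.00412 and 0.00759). SPL15, a factor of the vegetative to reproductive change, was lower at -1.54 ± 0.22 (edgeR, adjusted p = 0.00954), and GIF1 was higher by 0.45 ± 0.09 (adjusted p = 0.0319). In meristems none of the 28 tested passed in edgeR, where 0.292% of all genes were called. An unadjusted p under 0.05 was found in edgeR for 5 of the 28 and for 3406 of the 22605 genes tested. DESeq2 called 5 and limma-voom with quality weights 1, beside 3.59% and 3.75% of all genes. The effect of the mutation differed between tissues for 1 of 30, SPL15, at -1.74 ± 0.28 (edgeR, adjusted p = 0.0216), where 0.751% of all genes were called. The count was 5 of 30 without ful-1 library 3, beside 10.2% of all genes. DESeq2 called 2 and limma-voom with quality weights 13, beside 4.91% and 20.1%.

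P450 enzymes take their electrons from reductases, of which ATR1 and ATR2 are the main ones in Arabidopsis. ATR1 had 172 ± 25.2 CPM in Col-0 meristems, 147 ± 11.4 in ful-7 meristems and 144 ± 23.0 in Ler pistils (SD, n = 3). ATR2 had 79.9 ± 6.71, 72.5 ± 1.45 and 84.1 ± 4.29 CPM in the same groups. In ful-1 pistils ATR1 had 162, 139 and 31.5 CPM and ATR2 had 88.5, 86.2 and 9.07 CPM in libraries 1 to 3. Neither passed in edgeR between genotypes, between wild-type tissues or for the difference, with adjusted p from 0.225 to 0.957. Between ful-1 pistils and ful-7 meristems 0 of the 2 passed in edgeR with all libraries. Without ful-1 library 3, 1 of the 2 was called higher in pistils there, beside 36.4% of all genes. Without ful-1 library 3 the pistil log2 fold changes were 0.02 ± 0.15 SE for ATR1 and 0.01 ± 0.08 for ATR2, against -0.40 ± 0.53 and -0.48 ± 0.70 with it (edgeR, adjusted p = 0.952 and 0.919, and 0.757 and 0.779). Between Ler pistils and Col-0 meristems the log2 fold change was -0.24 ± 0.16 SE for ATR1 and 0.09 ± 0.10 for ATR2, small beside those of CYP78A5 and CYP78A6.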

How the data were processed

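The authors deposited whole-number counts per gene. The submitters' processing notes name STAR 2.7.0b, featureCounts 1.6.0 and the TAIR10 build; trimming and the strand setting were not given in the sources used here. Column names give the group only, and library numbers here are the order in the table. Members and lists were chosen with earlier results of these data known. All 6 members are named in every comparison, list genes by lowest p (up to 4 called per comparison), and the 3 most similar genes per member with a group mean of at least 1 CPM.

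Each comparison was fitted on its own libraries in R 4.3.3 with edgeR 4.0.16 (filterByExpr, TMM, quasi-likelihood F test, robust estimation off, Benjamini-Hochberg over all genes tested, threshold 0.05). SE was derived from the log2 fold change and F. P-values reflect only how far these samples spread. Levels are CPM scaled by TMM over all 12 libraries. DESeq2 1.42.0, limma 3.58.1 voom with sample quality weights, other filters and scalings, a fit of all 12 libraries and omission of each library were alternatives; the comparison of the mutant tissues was added after the data were seen. The fitting code was tested on simulated data. Exonic lengths, coding sequences and windows came from RefSeq TAIR10.1, which matched 36632 of 36917 loci, with Biopython 1.88 and blastn 2.17.0. Floors allow for counting error alone.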

Additional observations from a re-analysis of the deposited data

How the results depend on the processing

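No paired analysis was possible because the deposited columns carry no replicate numbers. Under the alternatives no called CYP78A difference changed direction. In pistils limma-voom with sample quality weights called 1 member, CYP78A9, and the count was 0 under each other setting and with any library left out. The 4 calls between the wild types held in every alternative in which the gene was tested, and CYP78A7 joined them under DESeq2, limma-voom, no filter (adjusted p = 0.0457) and without Ler library 2; a stricter filter left CYP78A8 untested. In the mutant tissues 3 to 5 members were called when single libraries were left out.

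Counts over all genes moved most. For ful-1 against Ler pistils they were 44 in edgeR, 927 in DESeq2, 5458 in limma-voom and 647 in a fit of all 12 libraries; leaving out 1 library gave 0 to 3221, the highest without ful-1 library 3 and 0 or 1 without any other. For ful-7 against Col-0 they were 66, 812, 847 and 26, with 153 without a filter and 10 to 93 with 1 library left out (93 without Col-0 library 3, 31 or fewer without any other). For the difference they were 189 in edgeR, 1236 in DESeq2 and 5061 in limma-voom, and 57 to 2599 with 1 library left out, the highest without ful-1 library 3. For the mutant tissues they were 7191, and 4866 to 17625 with 1 library left out. Fits that leave 2 libraries in a group assume these vary like the rest. The median of all genes shifted by 0.04 or less on the log2 scale with DESeq2 size factors. Without division by length, 4 of 6 members kept their place in ful-7 meristems and 6 of 6 in the other groups. CYP78A8 in pistils, CYP78A6 and CYP78A9 in meristems and CYP78A10 in all groups were limited by counts: without a filter CYP78A8 had a log2 fold change of -0.77 in ful-1 pistils (edgeR, adjusted p = 0.715) and CYP78A6 -1.90 in ful-7 meristems (adjusted p = 0.574).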
